A study of Mus musculus with 12 samples.

Results

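The MYC, MAX and MXD network was described through 8 genes, MYC, MAX, MXI1, MXD1, MXD4, MNT, MLX and MGA, found by their gene symbols among the 60683 rows of a gene expression table of EMT6 cells. Of the 8, 7 reached at least 1 TPM (transcripts scaled for length and to a fixed library total) in a library and were tested with 14389 rows in all; MXD1 stayed under 1 TPM in each library and is reported as not measured. EMT6 is a mouse breast cancer cell line. The 12 libraries formed 4 groups of 3, named as biological replicates in the labels: ISG20-knockdown subclones (shISG20) at 1% O2, the same subclones at 20% O2, control subclones (shNTC, labelled wild type) at 1% O2 and control subclones at 20% O2. Each exposure lasted 48 hours, except that the label of shISG20 replicate 3 at 20% O2 reads 484 hours. How many clones or hairpins stood behind each subclone is not given in the sources used here, and the p-values measure only the spread between these libraries.

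MYC is a transcription factor that binds DNA as a pair with MAX and switches on genes for ribosome production, nucleotide synthesis and growth. MAX also pairs with MXD proteins, MXI1 (also called MXD2), MNT and MGA, and those pairs occupy the same sites, called E-boxes, and repress the genes there. MLX runs a parallel branch: it pairs with the glucose-responsive factors MLXIP and MLXIPL, and with some MXD proteins and MNT. In hypoxic cells HIF-1, a form of the hypoxia-inducible factor HIF, is known to raise MXI1 and to oppose MYC.

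The E-box that MYC-MAX pairs prefer is CACGTG, and HIF binds the shorter cores ACGTG, which every CACGTG contains, and GCGTG. RefSeq promoter windows (mouse build GRCm38.p6, 250 bases before to 50 bases after each listed start) were matched for 7 of the 8 genes, by mouse symbol; Myc was not among them. CACGTG lay in the windows of 4 of the 7, Max, Mlx, Mnt and Mxd4, against 8.09% of 27025 genes with a window. ACGTG, searched on both strands, lay in 6 of the 7, against 21.8% of genes. GCGTG, also searched on both strands, lay in 4 of the 7, Max, Mga, Mnt and Mxd1, against 35.2% of genes. A stretch of each of the 6 windows with ACGTG is shown because these letters are shared by the E-box and the HIF core, with the E-box, or else ACGTG, in capitals; a match is a description of the letters, not a binding site.
Max: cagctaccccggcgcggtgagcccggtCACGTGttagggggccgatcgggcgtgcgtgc
Mxd4: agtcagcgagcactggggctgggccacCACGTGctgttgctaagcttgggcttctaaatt
Mnt: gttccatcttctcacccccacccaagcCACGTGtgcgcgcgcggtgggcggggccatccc
Mlx: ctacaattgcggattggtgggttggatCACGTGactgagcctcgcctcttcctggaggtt
Mxi1: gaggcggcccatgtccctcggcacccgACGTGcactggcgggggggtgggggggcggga
Mga: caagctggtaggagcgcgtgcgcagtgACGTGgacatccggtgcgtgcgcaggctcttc
The Max sequence is chr12:76962220-76962278 on the minus strand, with the motif spanning the listed start, and the Mxd4 sequence is chr5:34187897-34187956 on the minus strand, with the motif at -219. The bases just after the listed Max start were found in no Max transcript of the mouse GENCODE set, whereas those after the other starts shown were found in a transcript of their gene. The Mnt sequence is chr11:74830774-74830833 on the plus strand, with the motif at -123, and the Mlx sequence is chr11:101087223-101087282 on the plus strand, with the motif at -40. The Mxi1 sequence is chr19:53329320-53329378 on the plus strand, with the motif at -66 from the second of 3 listed starts, and the Mga sequence is chr2:119897193-119897251 on the plus strand, with the motif at -8. Genes with the CACGTG E-box in these windows moved both ways in hypoxia: the MAX row fell and the MXD4 row rose in the shISG20 cells, as given below with their values.

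The table holds TPM for human gene rows on build GRCh38, although the cells are of mouse origin, so a row's level also depends on how well mouse reads match the human gene; the part of this in differences between genes was not tested. From the TPM steps, 3173991 to 5201799 reads per library could be recovered. ISG20, the targeted exonuclease gene, averaged 0.566 ± 0.140 TPM in shISG20 and 8.28 ± 0.623 TPM in shNTC cells at 1% O2, and 0.225 ± 0.0942 TPM in shISG20 and 2.46 ± 0.372 TPM in shNTC cells at 20% O2 (SD, n = 3). All 11 tested genes of a hypoxia list (such as SLC2A1 and EGLN3) rose at 1% O2 in both lines. Of all rows tested, 14.0% were called higher in shISG20 and 12.8% in shNTC cells. Of 10 carcinoma markers, 5 to 6 per group reached 1 TPM in at least 1 library, with KRT8, KRT18 and VIM present. EPCAM and KRT5 stayed under 1 TPM in each library, and CDH1 and CDH2 were at 0. The summed level of the 10 was 8534 to 8706 TPM in shISG20 cells at 1% O2 and 2335 to 2568 TPM at 20% O2, and 7379.9 to 7503 TPM in shNTC cells at 1% O2 and 3024 to 3056 TPM at 20% O2. Most of each sum was VIM, which averaged 8046 and 1827 TPM in shISG20 cells at 1% and 20% O2. In shNTC cells VIM averaged 6851 and 1979 TPM. FN1 fell at 1% O2 in both lines, while VIM, KRT8, KRT14, KRT18 and KRT19 rose. Of 9 leucocyte markers CSF1R alone was above 0, and the summed list reached 1.18 to 2.74 TPM (shISG20, 1% O2), 0 to 0.150 TPM (shISG20, 20% O2), 1.70 to 3.23 TPM (shNTC, 1% O2) and 0 to 0.135 TPM (shNTC, 20% O2). Of 9 endothelial and fibroblast markers, PECAM1, CDH5, KDR, THY1 and LUM were at 0 and the summed list ran over 1.58 to 2.76, 5.35 to 7.73, 1.96 to 3.90 and 7.73 to 8.27 TPM in the same order of groups. The part of these lists in the results was not tested.

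MYC itself fell in hypoxia in both lines, and fell further in the shISG20 cells. It stood at 27.7, 35.1 and 31.6 TPM in the 3 shISG20 libraries at 1% O2, against 264, 298 and 308 TPM at 20% O2. It stood at 46.8, 56.9 and 51.2 TPM in the shNTC libraries at 1% O2, against 239.6, 278 and 262 TPM at 20% O2. The 1% and 20% libraries did not overlap in either line, and at 1% O2 each shISG20 library lay below each shNTC library, while at 20% O2 they overlapped. Mean TPM was 9.23-fold lower at 1% O2 in the shISG20 cells (log2 fold change -3.17 ± 0.10, SE, adjusted p = 1.23e-09, by limma on log2(TPM + 1) with Benjamini-Hochberg adjustment over all rows tested). It was 5.03-fold lower at 1% O2 in the shNTC cells (-2.31 ± 0.10, adjusted p = 1.93e-08). The difference between these falls, tested as an interaction, was -0.86 ± 0.14 on the log2 scale (adjusted p = 0.00704). Seen the other way, MYC was 1.64-fold lower in shISG20 than in shNTC cells at 1% O2 (-0.70 ± 0.10, adjusted p = 0.00171). At 20% O2 MYC averaged 290.1 ± 23.0 TPM in shISG20 and 259.9 ± 19.2 TPM in shNTC cells, with a log2 fold change of 0.16 (95% interval -0.07 to 0.38, adjusted p = 0.382). Among the 14389 rows tested, 21 had a lower log2 fold change than MYC with hypoxia in shISG20 cells and 72 in shNTC cells. These contrasts share libraries, so they are not independent of each other. In these bulk libraries, fewer cells with a transcript and less of it per cell cannot be told apart.

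**Figure D1:**
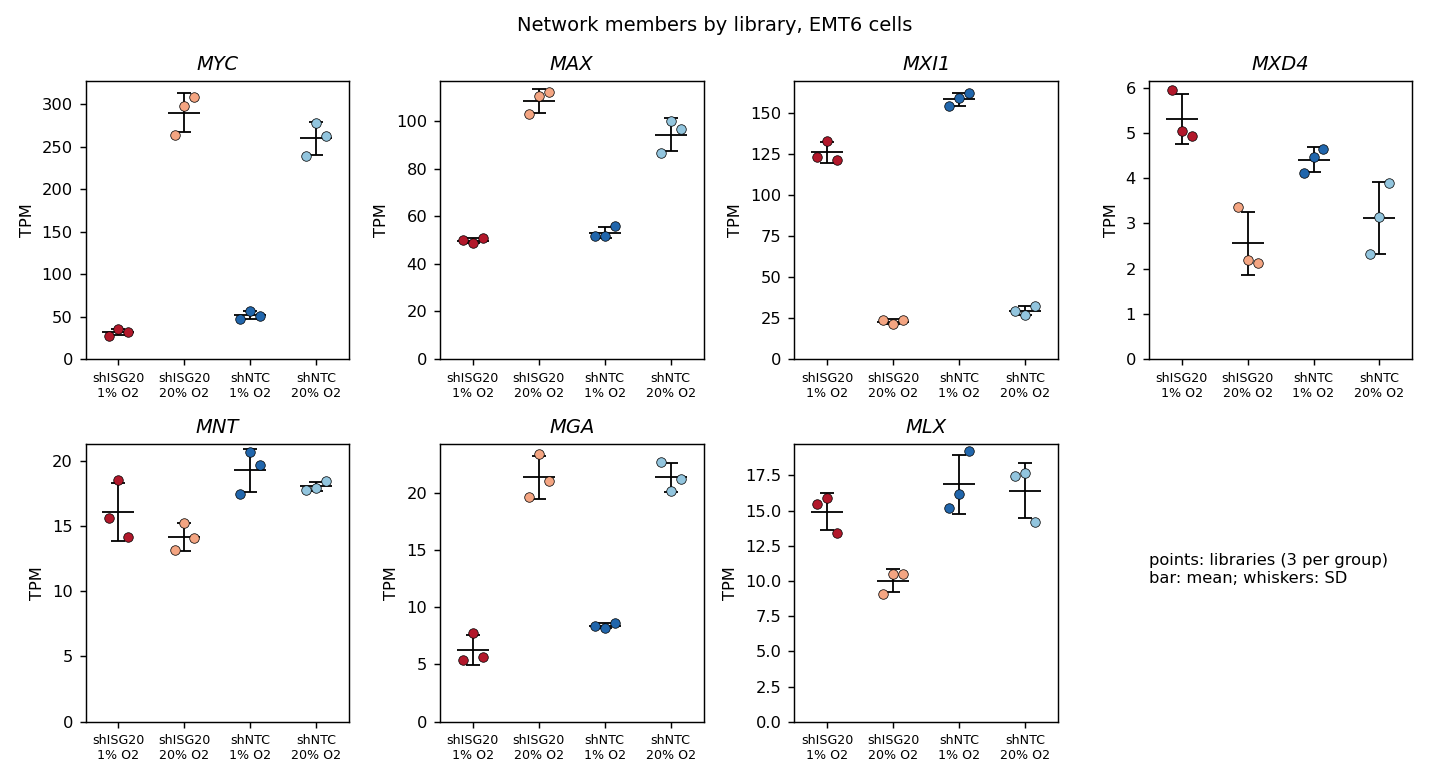
TPM of the 7 measured genes in each library (points), with the mean and SD of each group of 3, for shISG20 and shNTC cells at 1% and 20% O2. MYC, MAX and MGA sit lower at 1% O2 in both lines, MXI1 sits higher, and MYC reaches 27.7 to 35.1 TPM in the shISG20 libraries at 1% O2 against 46.8 to 56.9 TPM in the shNTC libraries.

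MAX, the shared partner of MYC, the MXD proteins, MNT and MGA, fell less than MYC. It stood at 49.99, 48.8 and 50.6 TPM in shISG20 cells at 1% O2, against 102.8, 110.4 and 112 TPM at 20% O2. It stood at 51.7, 51.7 and 55.9 TPM in shNTC cells at 1% O2, against 86.5, 99.9 and 96.4 TPM at 20% O2. No library at 1% O2 reached the level of any library at 20% O2. The fall was 2.18-fold in mean TPM in shISG20 cells (log2 fold change -1.11 ± 0.07, adjusted p = 1.21e-07) and 1.78-fold in shNTC cells (-0.81 ± 0.07, adjusted p = 1.8e-06). Between the lines the MAX libraries did not overlap at either oxygen level, but the differences did not pass the test: the log2 fold change was -0.09 at 1% O2 (adjusted p = 0.42) and 0.20 at 20% O2 (adjusted p = 0.0749). The interaction for MAX was -0.29 ± 0.09 (adjusted p = 0.0867). Over the alternatives tried, the adjusted p of this interaction ran from 0.0397 to 0.232. That of the MAX difference at 20% O2 ran from 0.00654 to 0.233, so both calls depended on the processing.

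MXI1, a MAX partner that recruits corepressors and opposes MYC, went the other way and rose in hypoxia in both lines. It stood at 123, 133 and 121 TPM in shISG20 cells at 1% O2, against 23.5, 21.4 and 23.6 TPM at 20% O2. It stood at 154, 159 and 162 TPM in shNTC cells at 1% O2, against 29.1, 26.7 and 32.3 TPM at 20% O2. None of the 4 groups overlapped, and their order was shNTC at 1% O2, shISG20 at 1% O2, shNTC at 20% O2 and shISG20 at 20% O2. Mean TPM was 5.51-fold higher at 1% O2 in shISG20 cells (log2 fold change 2.41 ± 0.08, adjusted p = 1.01e-09) and 5.39-fold higher in shNTC cells (2.40 ± 0.08, adjusted p = 1.53e-09). The interaction was 0.02 on the log2 scale with a 95% interval of -0.22 to 0.25 (adjusted p = 0.952). MXI1 was lower in shISG20 than in shNTC cells at 1% O2 (-0.33 ± 0.08, adjusted p = 0.0153) and at 20% O2 (-0.35 ± 0.08, adjusted p = 0.0137). The call at 20% O2 was lost in a fit without the 1% O2 libraries (adjusted p = 0.0699), and without shISG20 replicate 2 (0.0557). The call at 1% O2 was lost without shNTC replicate 2 (0.0543), shISG20 replicate 1 (0.053) or shISG20 replicate 3 (0.0579).

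MXD4, a MXD family repressor, stood at 5.95, 5.05 and 4.93 TPM in shISG20 cells at 1% O2, against 3.37, 2.19 and 2.13 TPM at 20% O2. It stood at 4.11, 4.47 and 4.66 TPM in shNTC cells at 1% O2, against 2.32, 3.15 and 3.90 TPM at 20% O2. The 1% libraries lay above the 20% libraries in both lines. MXD4 rose in the shISG20 cells (2.07-fold in mean TPM, log2 fold change 0.84 ± 0.18, adjusted p = 0.0022), and its log2 fold change was 0.41 ± 0.18 in the shNTC cells (adjusted p = 0.0842). The interaction of 0.43 had an adjusted p of 0.364, so the responses were not shown to differ, and the knockdown differences of 0.22 at 1% O2 (adjusted p = 0.49) and -0.21 at 20% O2 (adjusted p = 0.534) did not pass. With 19 to 69 reads per library behind MXD4, its values are among the least precise here. MXD1 had 0 to 7 reads in each library.

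MNT, the broadly expressed repressor that antagonises MYC, did not pass the test in any comparison. It stood at 15.6, 18.5 and 14.1 TPM in shISG20 cells at 1% O2, against 13.1, 15.2 and 14.1 TPM at 20% O2. It stood at 17.5, 20.7 and 19.6 TPM in shNTC cells at 1% O2, against 17.8, 17.9 and 18.4 TPM at 20% O2. Oxygen groups overlapped in both lines, while at 20% O2 each shISG20 library lay below each shNTC library. The log2 fold change with hypoxia was 0.17 in shISG20 cells (95% interval -0.07 to 0.40) and 0.09 in shNTC cells (adjusted p = 0.534). The knockdown difference was -0.25 at 1% O2 (adjusted p = 0.156) and -0.33 at 20% O2 (adjusted p = 0.0746). Over the alternatives tried these adjusted p ran from 0.0499 to 0.4 and from 0.0192 to 0.205.

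MGA, the large MAX partner that carries a T-box and belongs to the PRC1.6 repressor complex, fell in hypoxia in both lines. It stood at 5.40, 7.76 and 5.64 TPM in shISG20 cells at 1% O2, against 19.7, 23.4 and 20.99 TPM at 20% O2. It stood at 8.38, 8.18 and 8.59 TPM in shNTC cells at 1% O2, against 22.7, 20.2 and 21.2 TPM at 20% O2. The oxygen groups were far apart, the shISG20 libraries lay below the shNTC libraries at 1% O2, and the lines overlapped at 20% O2. Mean TPM was 3.40-fold lower in shISG20 cells (log2 fold change -1.63 ± 0.12, adjusted p = 8.4e-07) and 2.55-fold lower in shNTC cells (-1.25 ± 0.12, adjusted p = 8.92e-06). The knockdown difference at 1% O2 was -0.38 ± 0.12 (adjusted p = 0.0674) and the interaction was -0.38 ± 0.18 (adjusted p = 0.23). Over the alternatives tried these adjusted p ran from 0.00471 to 0.199 and from 0.0233 to 0.397, so both calls depended on the processing. At 20% O2 MGA averaged 21.3 ± 1.87 TPM in shISG20 and 21.4 ± 1.27 TPM in shNTC cells.

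MLX, the hub of the glucose-responsive branch, was lower in the shISG20 cells at 20% O2. It stood at 9.05, 10.5 and 10.5 TPM in shISG20 cells, against 17.4, 17.6 and 14.2 TPM in shNTC cells at that oxygen level. At 1% O2 it stood at 15.4, 15.9 and 13.4 TPM in shISG20 cells, against 15.2, 16.1 and 19.2 TPM in shNTC cells. The shISG20 libraries at 20% O2 lay below all 9 other libraries, and the other groups overlapped with their neighbours. MLX was 1.64-fold lower in shISG20 than in shNTC cells at 20% O2 (log2 fold change -0.66 ± 0.12, adjusted p = 0.00627), and the difference at 1% O2 was -0.16 (adjusted p = 0.439). With hypoxia MLX rose in shISG20 cells (1.49-fold, 0.53 ± 0.12, adjusted p = 0.00336), and its log2 fold change in shNTC cells was 0.04 (adjusted p = 0.834). The interaction of 0.49 ± 0.17 did not pass (adjusted p = 0.119), and its adjusted p ran from 0.0497 to 0.217 over the alternatives tried. A processed pseudogene row, MLXP1, held 0 to 3 reads per group.

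The MLX partner MLXIP averaged 1.46 ± 0.201 TPM at 1% O2 and 2.27 ± 0.323 TPM at 20% O2 in shISG20 cells, and 1.21 ± 0.431 TPM at 1% O2 and 1.99 ± 0.317 TPM at 20% O2 in shNTC cells (SD, n = 3). It passed no test. MLXIPL had 1 read in all libraries together, MYCN none and MYCL 1 read, and MXD3 stayed at or below 0.473 TPM. TXNIP, a glucose-responsive target of MLX and MLXIP that restrains glucose uptake, fell at 1% O2 to 60.2 ± 8.05 TPM in shISG20 cells, against 252 ± 24.2 TPM at 20% O2 (log2 fold change -2.05, adjusted p = 9.95e-07). In shNTC cells it averaged 60.9 ± 16.9 TPM at 1% O2 and 169.8 ± 4.12 TPM at 20% O2 (-1.50, adjusted p = 1.56e-05). At 20% O2 it was higher in shISG20 than in shNTC cells (0.56, adjusted p = 0.0451), where MLX was lower. ARRDC4, a related target, was listed at 0 throughout.

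Counted over the 7 tested genes, hypoxia raised 3 and lowered 3 in shISG20 cells, where 14.0% of all rows tested were called higher and 42.8% lower. In shNTC cells it raised 1 and lowered 3, where 12.8% of rows were called higher and 38.1% lower. With so many rows called, a hypoxia call alone did not set these genes apart. At 1% O2, 2 of the 7 were lower in shISG20 cells (MYC and MXI1), where 9.66% of rows were called lower and 4.25% higher. At 20% O2, 2 were lower in shISG20 cells (MLX and MXI1), where 6.55% of rows were called lower and 5.05% higher. No gene of the 7 was called higher in shISG20 than in shNTC cells by limma. At an unadjusted p under 0.05 there were 0 at 1% O2 and 1 at 20% O2, where 1308 and 1796 of the 14389 rows were higher. By voom on recovered reads there were 0 at 1% O2 (7.12% of rows higher and 12.0% lower) and 2 at 20% O2 (8.68% higher and 8.55% lower). The 2 were MYC and MAX. In the interaction MYC alone was called, where 4.31% of rows were called lower and 2.62% higher. The median log2 fold change of the 7 was 0.17 with hypoxia in shISG20 cells, beside -0.35 for all rows tested, and 0.04 in shNTC cells, beside -0.28.

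**Figure D2:**
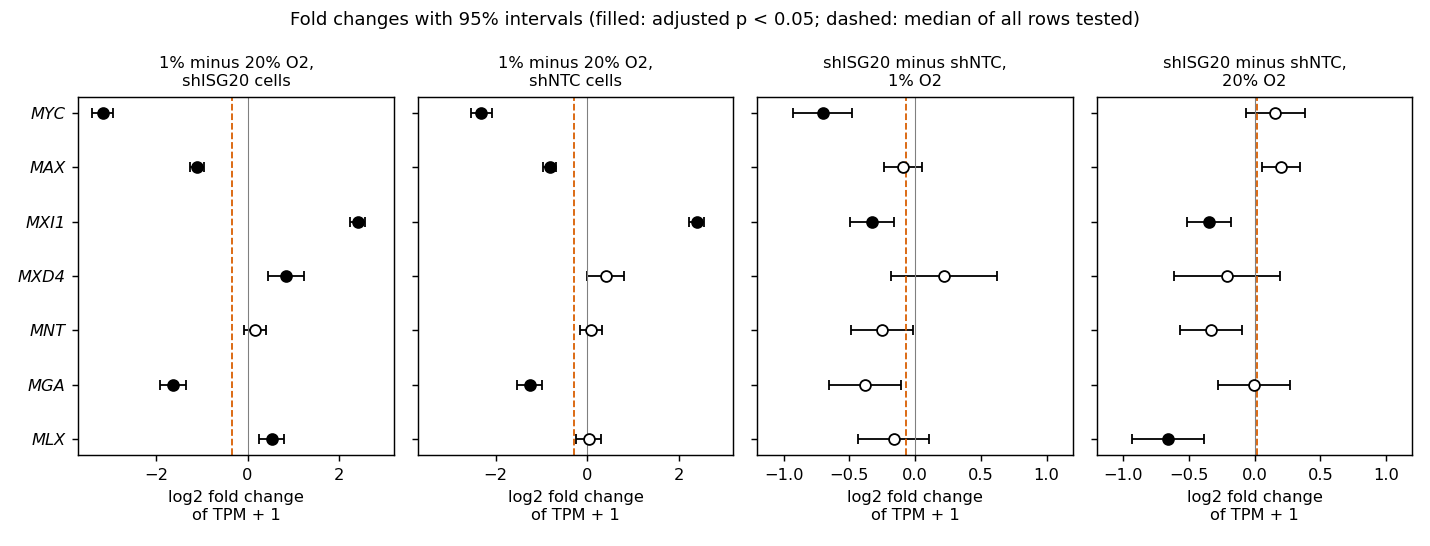
Log2 fold changes of TPM + 1 with 95% intervals for the 7 tested genes, in 4 comparisons: 1% minus 20% O2 in shISG20 and in shNTC cells, and shISG20 minus shNTC at 1% and at 20% O2. Filled points passed an adjusted p of 0.05 and the dashed line is the median of all rows tested; MYC lies at -3.17 and -2.31 and MXI1 at 2.41 and 2.40 with hypoxia, and MYC at -0.70 and MLX at -0.66 in the knockdown comparisons.

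The scaling of the libraries bears on the hypoxia comparisons, because the median of all rows was -0.35 in shISG20 and -0.28 in shNTC cells on the TPM scale. With median-of-ratios size factors, which set that median to 0, all rows called split into 3781 higher (26.3%) and 3828 lower (26.6%) in shISG20 cells, in place of 2021 and 6152. In shNTC cells the same scaling gave 3311 higher (23.0%) and 3210 lower (22.3%), in place of 1847 and 5479. MYC, MAX and MGA fell and MXI1 rose in both lines on every scaling tried. MNT, which passed nothing on the TPM scale, had log2 fold changes of 0.56 in shISG20 and 0.41 in shNTC cells with median-of-ratios factors and passed in both, as did MXD4 (0.67) and MLX (0.36) in shNTC cells. By voom MNT also passed, with 0.33 in shISG20 (adjusted p = 0.0048) and 0.24 in shNTC cells (adjusted p = 0.0318). At 1% O2 the knockdown comparison also shifted, with 1016 rows higher and 1087 lower in place of 611 and 1390, and the interaction gave 590 higher (4.10%) and 456 lower (3.17%) in place of 377 and 620; the number of network genes called there was 2 and 1, as on the TPM scale. Whether MNT, MXD4 and MLX rose in hypoxic shNTC cells therefore depended on the scaling.

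**Figure D3:**
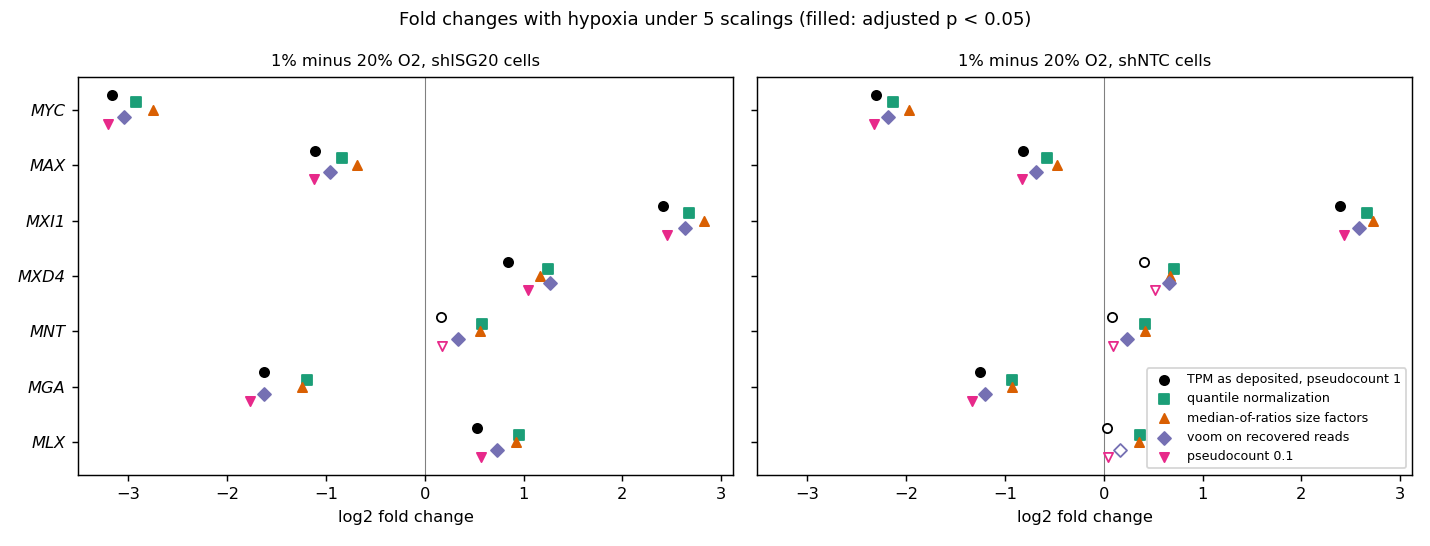
Log2 fold changes with hypoxia (1% minus 20% O2) of the 7 tested genes in shISG20 and shNTC cells under 5 treatments of the values; filled symbols passed an adjusted p of 0.05. MYC, MGA and MAX stay below 0 and MXI1 above 0, while MNT moves to 0.56 in shISG20 and 0.41 in shNTC cells with median-of-ratios factors.

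The balance between MYC and its antagonist was also taken within each library, where scaling cancels. The TPM ratio of MYC to MXI1 was 0.224, 0.264 and 0.261 in shISG20 cells at 1% O2, against 11.2, 13.9 and 13.03 at 20% O2. In shNTC cells it was 0.304, 0.357 and 0.317 at 1% O2, against 8.23, 10.4 and 8.12 at 20% O2. Within each line every library at 1% O2 had a lower ratio than every library at 20% O2. The ratio carries how well mouse reads match each human row, so its change between groups can be read, but not which transcript was the more abundant. The mean ratio was 51.0-fold lower at 1% O2 in shISG20 cells and 27.4-fold lower in shNTC cells. MYC per MAX averaged 0.632 ± 0.0834 at 1% O2 and 2.67 ± 0.0890 at 20% O2 in shISG20 cells, and 0.974 ± 0.110 at 1% O2 and 2.76 ± 0.0335 at 20% O2 in shNTC cells. MXI1 per MAX averaged 2.53 ± 0.177 at 1% O2 and 0.211 ± 0.0172 at 20% O2 in shISG20 cells, and 2.98 ± 0.0955 at 1% O2 and 0.313 ± 0.0394 at 20% O2 in shNTC cells. These are ratios of RNA, with no measure of protein.

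**Figure D4:**
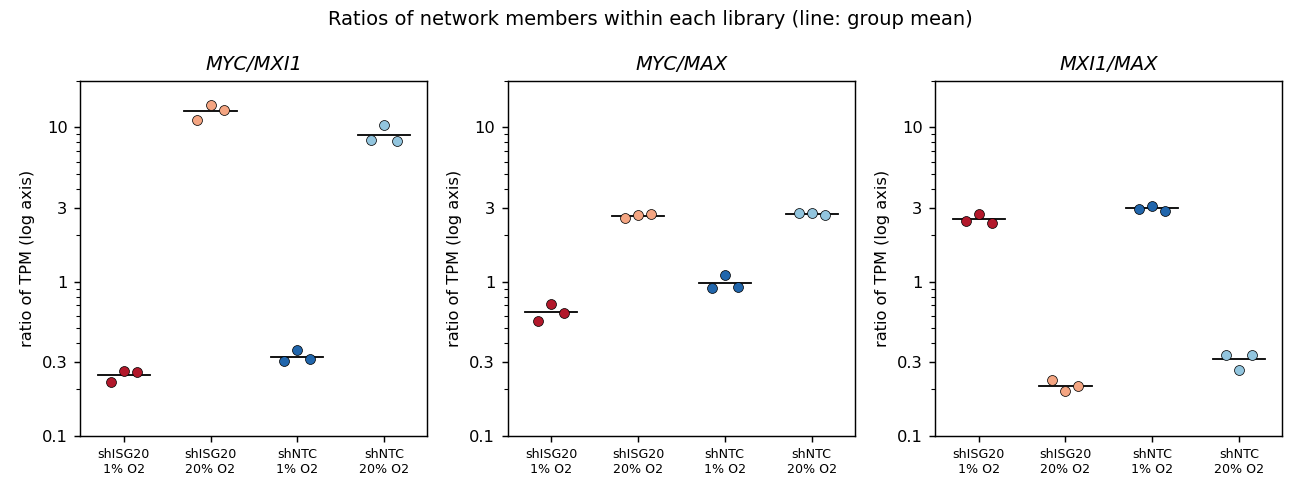
Ratios of TPM within each library (points, log axis) with the group mean (line) for MYC/MXI1, MYC/MAX and MXI1/MAX in shISG20 and shNTC cells at 1% and 20% O2. MYC/MXI1 averages 0.249 and 0.326 at 1% O2 and 12.7 and 8.92 at 20% O2 in shISG20 and shNTC cells.

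Rows nearest in profile to each main gene were found by the root mean square difference of centred log2(TPM + 1) values over the 12 libraries. The search covered 6414 rows that matched a mouse gene and averaged at least 5 TPM in their highest group. Nearest to MYC were MDN1 (0.139), an AAA protein of large ribosomal subunit maturation, DDX21 (0.139), a nucleolar RNA helicase, and RRS1 (0.149), a ribosome assembly factor. MDN1 averaged 0.917 ± 0.449 TPM at 1% O2 and 16.95 ± 1.87 TPM at 20% O2 in shISG20 cells. In shNTC cells MDN1 averaged 1.79 ± 0.152 TPM at 1% O2 and 15.6 ± 1.08 TPM at 20% O2. The pseudocount of 1 shrinks changes at levels this low, so the MDN1 distance understates how far its fall differed from that of MYC. DDX21 averaged 11.1 ± 0.822 TPM at 1% O2 and 102.7 ± 0.561 TPM at 20% O2 in shISG20 cells, and 16.6 ± 2.69 TPM at 1% O2 and 88.2 ± 4.77 TPM at 20% O2 in shNTC cells. Nearest to MXI1 were the glycolytic enzymes TPI1 (0.106) and GAPDH (0.136), and DIXDC1 (0.155). Nearest to MAX were TIMM13 (0.0597), a mitochondrial import chaperone, EIF3J (0.0696), a translation initiation factor subunit, and AUP1 (0.0703), a lipid droplet and endoplasmic reticulum protein.

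A list of genes activated by MYC fell with MYC in hypoxia. Of 41 symbols, which include both names of 2 genes, 35 were tested. In shISG20 cells 33 of the 35 fell at 1% O2, with a list median of -1.38 beside -0.35 for all rows, of which 42.8% fell. In shNTC cells 33 fell, with a median of -1.14 beside -0.28, where 38.1% of rows fell. The 2 that did not pass in either line were TFRC, the transferrin receptor, and EIF4A1, a translation initiation helicase. NOP56, a box C/D ribonucleoprotein core protein, averaged 28.3 ± 1.08 TPM at 1% O2 and 431 ± 15.7 TPM at 20% O2 in shISG20 cells, and 46.5 ± 4.12 TPM at 1% O2 and 362 ± 20.5 TPM at 20% O2 in shNTC cells. FBL, the methyltransferase of the same particle, averaged 99.4 ± 3.47 TPM at 1% O2 and 362 ± 4.201 TPM at 20% O2 in shISG20 cells, and 101.5 ± 3.66 TPM at 1% O2 and 328 ± 12.2 TPM at 20% O2 in shNTC cells. SRM, spermidine synthase, had log2 fold changes of -2.16 in shISG20 and -1.97 in shNTC cells. With median-of-ratios factors 28 of the genes activated by MYC fell and 2 rose in shISG20 cells, beside 26.6% and 26.3% of rows. In shNTC cells 29 fell with that scaling, beside 22.3% of rows.

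The same genes activated by MYC also differed between the lines. At 1% O2, where MYC was lower in shISG20 cells, 6 of the 35 were lower and 3 higher than in shNTC cells, with a median of -0.09 beside -0.07 for all rows. Of all rows 9.66% were called lower and 4.25% higher. NOP56 was lower (-0.69, adjusted p = 0.000211) and RCC1, the RAN exchange factor, was lower (-0.32, adjusted p = 0.00802). CAD, the enzyme that opens pyrimidine synthesis, was higher (0.35, adjusted p = 0.00507), as were SRM (0.30, adjusted p = 0.00737) and the nucleolar protein NPM1 (0.33, adjusted p = 0.00685). That split moved with scaling: median-of-ratios factors gave 4 lower and 7 higher, beside 7.55% of all rows lower and 7.06% higher. At 20% O2, 7 were higher and 0 lower (median 0.14 beside 0.01), beside 5.05% and 6.55% of all rows. At an unadjusted p under 0.05, 16 were higher and 0 lower, beside 1796 and 1794 of the 14389 rows tested. By voom 17 were higher and 0 lower, beside 8.68% and 8.55% of rows. CAD averaged 144.8 ± 6.92 TPM in shISG20 and 93.1 ± 1.98 TPM in shNTC cells at 20% O2 (0.63, adjusted p = 0.000141), and RCC1 averaged 128 ± 5.55 TPM in shISG20 and 84.2 ± 1.17 TPM in shNTC cells (0.60, adjusted p = 0.000217). In the interaction 8 of the 35 were called lower, beside 4.31% of all rows, and 1 higher, beside 2.62%; with median-of-ratios factors these counts were 6 and 1, beside 3.17% and 4.10% of rows. The 8 included NOP56 (-0.95, adjusted p = 0.001), RRP12, a ribosome export factor (-0.94, adjusted p = 0.00491), RCC1 (-0.92, adjusted p = 0.000887) and GNL3, nucleostemin (-0.68, adjusted p = 0.0153), and the exception was NPM1 (0.34, adjusted p = 0.047).

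Genes repressed by MYC moved in both directions. Of 9 tested, 4 rose and 2 fell with hypoxia in shISG20 cells (median 0.56 beside -0.35 for all rows, of which 14.0% rose and 42.8% fell). In shNTC cells 4 rose and 3 fell (median -0.13 beside -0.28, with 12.8% of rows higher and 38.1% lower). With median-of-ratios factors 5 rose and 2 fell in shISG20 cells, where 26.3% of rows rose and 26.6% fell, and 4 rose and 2 fell in shNTC cells, where 23.0% rose and 22.3% fell. NDRG2, a differentiation-linked gene of the NDRG family, averaged 27.5 ± 0.755 TPM at 1% O2 and 0.754 ± 0.454 TPM at 20% O2 in shISG20 cells, and 31.1 ± 1.35 TPM at 1% O2 and 0.374 ± 0.0188 TPM at 20% O2 in shNTC cells. FTH1, the ferritin heavy chain, rose by log2 fold changes of 0.92 in shISG20 and 1.03 in shNTC cells. GADD45A, a stress and growth arrest gene, fell instead (-1.57 in shISG20 cells, adjusted p = 1.56e-09, and -1.43 in shNTC cells, adjusted p = 4.7e-09). NDRG1, which stands in both this list and the hypoxia list, rose less in the shISG20 cells (0.95) than in the shNTC cells (2.01), with an interaction of -1.07 (adjusted p = 0.00128). At 20% O2 GADD45A (0.31, adjusted p = 0.00377) and NDRG1 (0.40, adjusted p = 0.0149) were higher in shISG20 cells, beside 5.05% of all rows. At 1% O2 NDRG1 was lower (-0.67, adjusted p = 0.001) and THBS1, a matrix glycoprotein, higher (0.43, adjusted p = 0.045), beside 9.66% and 4.25% of rows. That count of 1 higher and 1 lower became 2 higher and 1 lower with median-of-ratios factors, beside 7.06% and 7.55% of rows.

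MYC cofactors and chromatin partners fell with hypoxia: 15 of 15 in shISG20 cells (median -0.76 beside -0.35 for all rows, of which 42.8% fell) and 13 of 15 in shNTC cells (median -0.70 beside -0.28, with 38.1% of rows lower). With median-of-ratios factors the counts were 7 lower and 0 higher in shISG20 cells, beside 26.6% and 26.3% of rows, and 8 lower and 2 higher in shNTC cells, beside 22.3% and 23.0%. KAT2A, the acetyltransferase of the SAGA complex, averaged 34.4 ± 3.24 TPM at 1% O2 and 97.6 ± 5.31 TPM at 20% O2 in shISG20 cells, and 44.5 ± 4.11 TPM at 1% O2 and 89.9 ± 3.94 TPM at 20% O2 in shNTC cells. Its interaction of -0.48 passed (adjusted p = 0.0425), as did those of CDK9, the elongation kinase (-0.41, adjusted p = 0.0386), and RUVBL2, an AAA ATPase (-0.36, adjusted p = 0.0278). In the interaction 3 of the 15 were thus called lower and 0 higher, beside 4.31% and 2.62% of all rows. At 1% O2, 5 cofactors were lower in shISG20 cells, beside 9.66% of all rows, among them CDK9 (-0.42, adjusted p = 0.00415) and SMARCB1, a SWI/SNF subunit that binds MYC (-0.42, adjusted p = 0.034); with median-of-ratios factors 4 were lower and 1 higher, beside 7.55% and 7.06% of rows. At 20% O2 the scaffold TRRAP was lower (-0.32, adjusted p = 0.0383).

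Among 12 genes of MYC protein turnover, 9 fell and 2 rose with hypoxia in shISG20 cells (median -0.68 beside -0.35 for all rows, of which 42.8% fell and 14.0% rose) and 9 fell and 0 rose in shNTC cells (median -0.66 beside -0.28, with 38.1% of rows lower and 12.8% higher). With median-of-ratios factors 5 fell and 2 rose in shISG20 cells, beside 26.6% and 26.3% of rows, and 6 fell and 2 rose in shNTC cells, beside 22.3% and 23.0%. USP36, a nucleolar deubiquitinase that stabilises MYC, averaged 1.10 ± 0.246 TPM at 1% O2 and 8.85 ± 0.818 TPM at 20% O2 in shISG20 cells, and 1.44 ± 0.411 TPM at 1% O2 and 8.51 ± 0.808 TPM at 20% O2 in shNTC cells. FBXW7, the ubiquitin ligase subunit that marks MYC for destruction, fell with hypoxia in shISG20 cells (-1.14, adjusted p = 4.44e-05) and in shNTC cells (-0.49, adjusted p = 0.0139), and the interaction of -0.64 did not pass (adjusted p = 0.0845). USP28, the deubiquitinase that counters FBXW7, was lower in shISG20 than in shNTC cells at both oxygen levels. It averaged 1.97 ± 0.666 TPM in shISG20 and 5.12 ± 0.788 TPM in shNTC cells at 1% O2 (-1.06, adjusted p = 0.0225), and 3.47 ± 1.54 TPM in shISG20 and 8.78 ± 0.381 TPM in shNTC cells at 20% O2 (-1.196, adjusted p = 0.0145). HUWE1, another ligase that acts on MYC, was lower in shISG20 cells at 1% O2 (-0.32, adjusted p = 0.0486), and GSK3B, the kinase that primes MYC for FBXW7, at 20% O2 (-0.34, adjusted p = 0.0199). The 2 turnover genes lower at 1% O2, beside 9.66% of all rows, became 1 lower and 1 higher with median-of-ratios factors. That scaling called 7.55% of rows lower and 7.06% higher at 1% O2.

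The corepressors that MXD proteins and MNT recruit, the SIN3 and NCOR machinery, fell at 7 and rose at 2 of 11 genes with hypoxia in each line, with medians of -0.65 in shISG20 cells, beside -0.35 for all rows, and -0.57 in shNTC cells, beside -0.28. Of all rows 42.8% fell and 14.0% rose in shISG20 cells, and 38.1% fell and 12.8% rose in shNTC cells. With median-of-ratios factors 6 fell and 3 rose in shISG20 cells, beside 26.6% and 26.3% of rows, and 7 fell and 4 rose in shNTC cells, beside 22.3% and 23.0%. NCOR1, a scaffold of histone deacetylases, averaged 26.6 ± 2.30 TPM at 1% O2 and 58.5 ± 4.80 TPM at 20% O2 in shISG20 cells, and 29.1 ± 0.756 TPM at 1% O2 and 60.1 ± 2.29 TPM at 20% O2 in shNTC cells. SAP30, a SIN3 subunit, had an interaction of -0.67 (adjusted p = 0.00785) and was lower in shISG20 cells at 1% O2 (-0.49, adjusted p = 0.00337). SIN3A (-0.29, adjusted p = 0.0295) and HDAC1 (-0.39, adjusted p = 0.0228) were also lower there, while SAP18 was higher (0.24, adjusted p = 0.00491). Of all rows 9.66% were lower and 4.25% higher at 1% O2. With median-of-ratios factors 2 corepressors were lower and 2 higher at 1% O2, beside 7.55% and 7.06% of rows. At 20% O2 SIN3B was lower in shISG20 cells (-0.54, adjusted p = 0.0101).

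The other genes of the MGA complex PRC1.6 fell at 7 of 10 with hypoxia in each line, with medians of -0.96 in shISG20 cells, beside -0.35 for all rows, and -0.60 in shNTC cells, beside -0.28, where 42.8% and 38.1% of rows fell. With median-of-ratios factors 7 fell and 2 rose in shISG20 cells, beside 26.6% and 26.3% of rows, and 4 fell in shNTC cells, beside 22.3%. TFDP1, the E2F partner, averaged 12.6 ± 3.03 TPM at 1% O2 and 68.8 ± 2.53 TPM at 20% O2 in shISG20 cells, and 17.97 ± 3.13 TPM at 1% O2 and 60.0 ± 5.86 TPM at 20% O2 in shNTC cells. PCGF6, the Polycomb subunit that defines PRC1.6, averaged 6.65 ± 0.204 TPM at 1% O2 and 26.7 ± 2.51 TPM at 20% O2 in shISG20 cells, and 8.98 ± 1.94 TPM at 1% O2 and 22.4 ± 1.69 TPM at 20% O2 in shNTC cells. No gene of this list was called by limma in either knockdown comparison or in the interaction. Of all rows limma called 9.66% lower and 4.25% higher at 1% O2, and 6.55% lower and 5.05% higher at 20% O2. In the interaction it called 4.31% lower and 2.62% higher. With 10 genes, the absence of calls did not set the list apart from all rows. At an unadjusted p under 0.05, 5 were lower in shISG20 cells at 1% O2, 0 at 20% O2 and 3 in the interaction. Of the 14389 rows tested, 2642, 1794 and 2094 were lower in the same order. By voom the counts were 3, 0 and 2, where voom called 12.0%, 8.55% and 7.90% of all rows lower. It called 7.12%, 8.68% and 4.84% of rows higher.

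**Figure D5:**
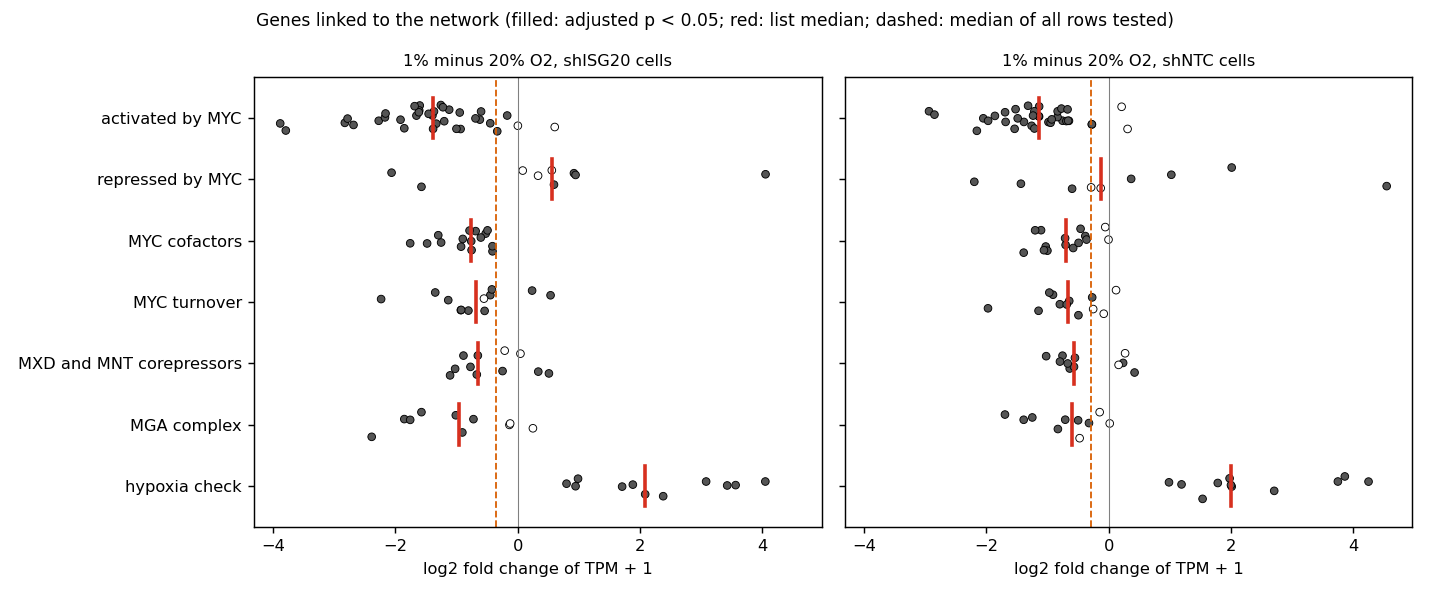
Log2 fold changes of TPM + 1 with hypoxia (1% minus 20% O2) for the genes of 7 lists in shISG20 and shNTC cells; each point is a gene, filled points passed an adjusted p of 0.05, red bars are list medians and the dashed line is the median of all rows tested. Genes activated by MYC have medians of -1.38 and -1.14 and the hypoxia list has medians of 2.09 and 2.00.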

How the data were processed

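RNA was sequenced from 12 EMT6 libraries in 4 groups. The authors deposited TPM values per gene; per the submitters' processing notes FastQC, STAR, featureCounts and build GRCh38 were used, and the step to TPM is not given in the sources used here. The 14389 rows that reached 1 TPM in 3 or more libraries were tested on log2(TPM + 1) with limma 3.58.1 in R 4.3.3, with 1 coefficient per group, empirical Bayes moderation with a variance trend, Benjamini-Hochberg adjustment over all rows and a threshold of 0.05. A pseudocount of 1 understates changes of low genes. Reads were recovered from the TPM steps up to a common divisor per row (100% of values whole within 0.01) and used for voom. Scripts were tested on simulated data. Alternatives were a pseudocount of 0.1, no filter, a filter of 5 TPM, quantile and median-of-ratios scaling, no variance trend, voom, only rows matching a mouse gene, only the groups compared, a replicate block and each library left out. The 8 network genes were all named, with up to 4 called genes of smallest p per list and comparison. The members and lists were chosen with earlier results of these data known. The labels' replicate numbers did not pair libraries: same-number deviations correlated at -0.042 to 0.015. Libraries of a group differed by more than counting noise (chi-square per degree of freedom 1.35 to 2.42).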

Additional observations from a re-analysis of the deposited data

Results flagged for a closer look

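MYC fell further with hypoxia in shISG20 than in shNTC cells. The difference of the log2 fold changes was -0.86 ± 0.14 (adjusted p = 0.00704 by limma), and it was drawn out because the same contrast of oxygen differed between the lines by a test of that difference. Mean MYC was 9.23-fold lower at 1% O2 in shISG20 cells and 5.03-fold lower in shNTC cells. Over the alternatives tried the difference ran from -0.94 to -0.77 and its adjusted p from 4.87e-08 to 0.0223.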

How the results depend on the processing

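Over the alternatives tried, the MYC calls in both hypoxia comparisons, at 1% O2 between lines and in the interaction, and the MLX call at 20% O2, kept their direction and stayed under the threshold. The count of network genes called at 20% O2 (2) became 5 by voom, 4 with only rows matching a mouse gene and 1 with only the groups compared, and 1 to 2 with a library left out (1 without shISG20 replicate 2). Of all rows at 20% O2, voom called 8.68% higher and 8.55% lower. With only rows matching a mouse gene, 869 of 8579 were higher and 1010 lower. With only the groups compared, 710 of 13545 were higher and 781 lower. At 1% O2 (2) the network count ran from 1 (without shNTC replicate 2 or shISG20 replicates 1 or 3) to 4 (without shISG20 replicate 2). With hypoxia in shNTC cells (4) it became 7 with quantile and with median-of-ratios scaling. Of all 14389 rows, quantile scaling called 2913 higher and 3586 lower there, and median-of-ratios scaling 3311 and 3210. In the interaction (1) the network count became 4 by voom and 2 with only rows matching a mouse gene, and 1 to 2 with a library left out (2 without shISG20 replicate 2 at 1% O2). Of all rows, voom called 4.84% higher and 7.90% lower in the interaction. With only rows matching a mouse gene, 461 of 8579 were higher and 997 lower. Counts over all rows with a library left out ran from 1086 to 1155 at 20% O2 (in place of 1670), 1161 to 1892 at 1% O2 (2001) and 597 to 1042 in the interaction (997). With only the groups compared the count at 1% O2 was 1086, and voom gave 1834 in the interaction. Near-zero values changed sign. MGA at 20% O2 was 0.021 by voom and ran from -0.0675 to 0.0512 with a library left out, MLX with hypoxia in shNTC cells from -0.0607 to 0.103, the MXI1 interaction from -0.0529 to 0.0795 and the MNT interaction from -0.0210 to 0.162. The cause of these shifts was not tested. With the replicate number as a block, the network calls stayed at 2, 2, 4, 6 and 1 in the 5 comparisons and all rows called were 1438 at 20% O2, 1748 at 1% O2 and 726 in the interaction; no network gene changed its call. MXD4 has no value under the 5 TPM filter. Low read numbers limit MXD4, and MXD1 stayed under 1 TPM in each library and counts as not measured. The part of depth or of read matching in this was not tested.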
